A study of Mus musculus with 67 samples.

Results

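The Wnt and Notch signaling genes were 24 genes of the mouse cerebral cortex, picked from a cDNA array by the start of their symbol. A gene entered if the array annotation gave its spot exactly 1 symbol and that symbol belonged to a family of Wnt or Notch components, or was Lef1, Lrp5, Lrp6 or Apc. The 24 genes were carried on 27 of the 8448 spots, and 4209 genes had a spot with 1 symbol. Wnt4, Gsk3b and Csnk2a2 had 2 spots each, and the spot with the higher mean over all arrays stood for the gene. Jagn1, a protein of the endoplasmic reticulum, and Ctnnbl1, a partner of the splicing machinery, entered by symbol alone and are not known as pathway components. The families Dvl, Sfrp, Tcf7, Notch and Dll, and the genes Lef1, Lrp5, Lrp6 and Ctnnb1, gave no member and were not analysed here.

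Wnt proteins are secreted lipid-modified ligands that bind Frizzled receptors on neighbouring cells. Without a ligand, a complex of Axin, Apc, glycogen synthase kinase 3 and casein kinase 1 marks beta-catenin for destruction. With one, beta-catenin reaches the nucleus and displaces Groucho-type co-repressors (of the Tle family) from TCF/LEF factors. Other Wnt signals run through calcium, calcineurin and the NFAT factors, or through small GTPases that shape the cytoskeleton. Notch receptors are cleaved after binding Jagged or Delta ligands on an adjacent cell, and the freed fragment acts with RBPJ on target genes. In the brain both pathways are known for patterning, neurogenesis, axon guidance and synapse maintenance.

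The 67 arrays came from male and female C57BL/6 mice. On caloric restriction (CR) they received 60% of regular feed and were studied at 6 months (5 females and 4 males), 16 months (5 and 5) and 24 months (5 and 3). On regular feed ad libitum (AL) they were studied at 17-21 days (3 females and 2 males), 33-44 days (2 and 3), and at 6, 16 and 24 months (5 and 5 at each age). The 24 months CR males were all 673 days old, against 714 to 743 days for 24 months AL males, so in males diet and age cannot be told apart at that stage.

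All values are z-scores, in which each array has a mean of 0 and an SD of 1, so a difference of 1 z unit is 1 SD of the spots of an array and not a fold change. A z above 0 marks a spot brighter than the average of its array. In whole cortex, fewer cells of a type and less RNA per cell cannot be told apart. Array number dominated the spread: the leading principal component, with 48.1% of the variance, had an R2 of 0.945 with the split between the 22 arrays numbered 46 and above and the 45 before them. The later arrays held 0 of the 5 arrays of 17-21 days and 2 to 4 of every other combination of age and diet. Replicate 2 of the 16 months AL males and replicate 2 of the females of that group were near-identical (r = 0.9998). Their average counts as 1 array in every mean for 16 months AL that pools the sexes. The main fits kept both as 2 mice. A fitted difference can therefore depart from the difference of the means, and its SE can be too small if the 2 are not independent. No fit that also accounts for array order was run without them.

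The promoter that carries the classical TCF/LEF core is shown because a match to it is the textbook mark of a beta-catenin target. RefSeq windows of 300 bases around the transcription start (build GRCm38.p6) were at hand for 15 of the 24 genes, in 25 windows. CTTTGAT, searched on both strands, stood in 1 of these 25 windows, that of Wnt5b, and in 3.73% of all 32851 RefSeq windows. The RBPJ site CGTGGGAA stood in 0 of the 25 and in 0.734% of all. The stretch at chr6:119449423-119449482 on the minus strand has the core in capitals, starting 71 bases before the start of Wnt5b. It is a match of letters and not a measured site.
Wnt5b: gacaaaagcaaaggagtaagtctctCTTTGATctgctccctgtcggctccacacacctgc

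Of the 24 genes, 10 had a mean z above 0 over the 67 arrays, against 4167 of all 8448 spots. Among the ligands these were Wnt4 (mean z 1.47), while Wnt5a (-0.83) and Wnt5b (-1.97), both ligands best known from signals that do not need beta-catenin, stood below 0. The 1 Frizzled receptor, Fzd3, which guides axons in mouse forebrain, had a mean z of 0.72. Of the secreted or membrane inhibitors, Apcdd1 stood at 0.16, Dkk3 at -0.25 and Dkk2 at -1.32. In the destruction complex and its kinases Gsk3b stood at 0.79, Csnk1g2 at 0.50, Csnk1d at -0.07, the scaffold Axin1 at -0.25, Csnk1a1 at -0.30, Csnk1g1 at -0.53, Apc at -0.90 and Csnk1e at -1.42.

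Of the Tle family, Tle6 stood at 0.79, Tle5 at 0.09 and Tle4 at -1.31. The calcium branch held Nfatc4 (1.07) and Nfatc3 (0.99), and the Notch ligand Jag1 stood at -0.15. Csnk2a2, a catalytic subunit of casein kinase 2, stood at -0.93, Jagn1 at 0.36 and Ctnnbl1 at -1.39. A spot's z depends on its clone as well as on its transcript, so these means do not rank the transcripts.

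Within groups the 24 genes had a median SD of 0.20 z units, from 0.12 for Tle5 to 0.47 for Csnk1g1, against a median of 0.21 over all spots. The later arrays moved the genes in both directions, with 12 of 24 higher, and the median size of the shift was 0.24 against 0.22 over all spots. Within groups, Csnk1g1 was 0.59 higher, Apc 0.53 higher and Gsk3b 0.43 higher in arrays numbered 46 and above than in those before. Ctnnbl1 had a shift of -0.58, Csnk1g2 one of -0.49, Fzd3 one of -0.33 and Wnt4 one of -0.33. For 8 of the 24 genes this shift held over 50% of the variance within groups, led by Gsk3b with 74.1%. Tle6 (3.04%) and Nfatc4 (3.28%) hardly moved with it.

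**Figure D1:**
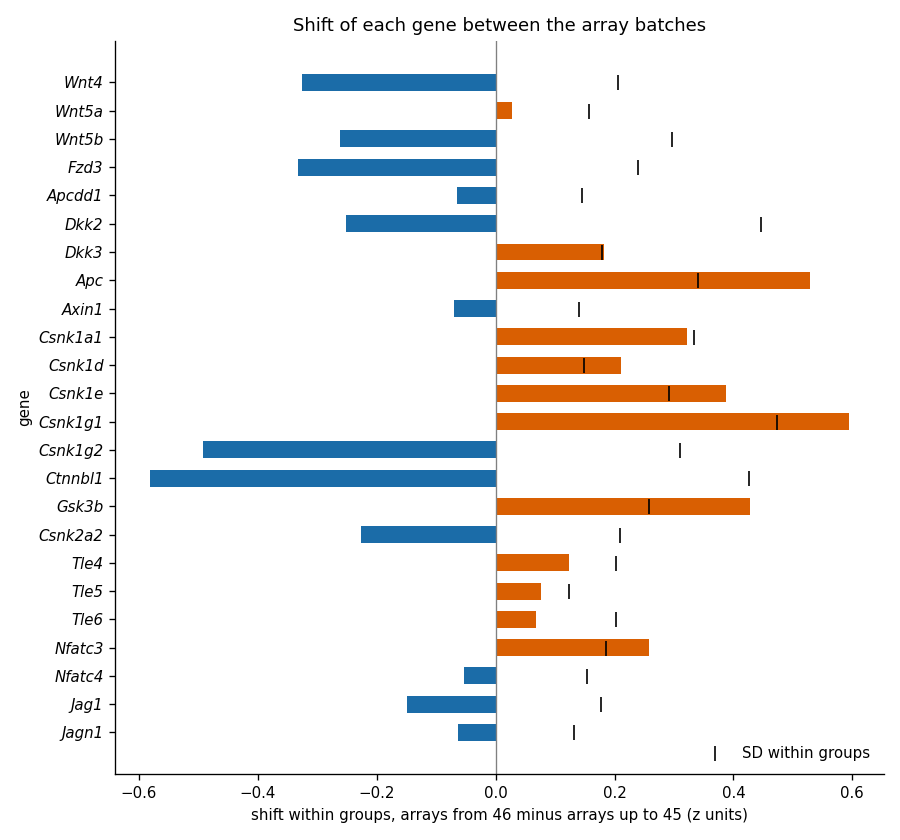
Shift of each of the 24 genes between the array batches (horizontal bars, z units, arrays numbered 46 and above minus arrays up to 45, within groups), ordered by role from Wnt ligands to the Notch ligand, with a tick for the SD within groups. Bars run from -0.58 for Ctnnbl1 to 0.59 for Csnk1g1, and those of Gsk3b, Apc, Wnt4 and Fzd3 are longer than the SD within their groups.

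Late aging was read from AL mice of 24 against 16 months. None of the 24 genes passed (0, limma, Benjamini-Hochberg adjusted p under 0.05), and neither did any other spot (0% of 8448). At an unadjusted p under 0.05, 1 of 24 was counted, where 6.57% of all spots were. That gene was Tle6, a Groucho-related co-repressor also known from the maternal complex of mouse oocytes. Without the near-identical arrays 1 of 24 genes had an unadjusted p under 0.05, where 4.297% of all spots did. The smallest limma adjusted p of the 24 was then 0.9997. The lowest, median and highest z of Tle6 were 0.73, 1.01 and 1.16 at 24 months, against 0.38, 0.74 and 0.99 at 16 months.

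For Tle6 the groups overlapped, but 9 of 10 arrays at 24 months lay above the mean at 16 months. The mean was 0.97 ± 0.14 at 24 months (SD, n = 10), against 0.74 ± 0.20 at 16 months (n = 9). The fitted difference was 0.25 ± 0.09 (SE, limma adjusted p = 0.647). It was 0.24 in the earlier arrays alone, where 24 months (0.73 to 1.03) and 16 months (0.38 to 0.90) overlapped. It was 0.26 in the later ones. There the 4 arrays of 24 months (1.02 to 1.16) did not overlap the 4 of 16 months (0.66 to 0.99). In the later arrays 2 of 24 genes, Tle6 and Wnt5a, had groups apart in this way, and so did 4.14% of all spots. Females had a mean Tle6 z of 1.00 at 24 months and 0.65 at 16 months, and males one of 0.95 and 0.81. The difference between the sexes was 0.20 ± 0.18 (SE, limma adjusted p = 1).

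On the CR diet Tle6 averaged 0.89 ± 0.16 at 24 months (SD, n = 8), against 0.69 ± 0.21 at 16 months (n = 10). The difference between the diets in this change was not called for any of the 24 genes.

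**Figure D2:**
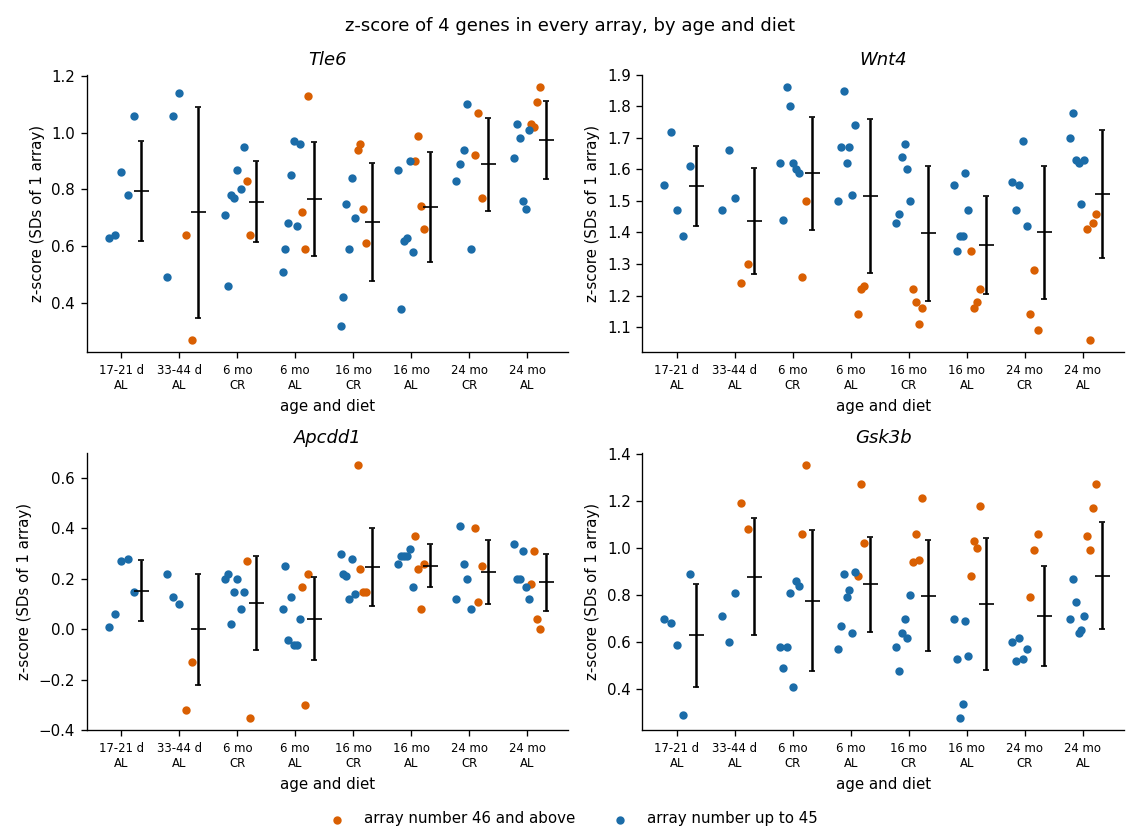
z-score (vertical axis, SDs of 1 array) of Tle6, Wnt4, Apcdd1 and Gsk3b in every array (points), by age and diet (horizontal axis), with arrays numbered 46 and above in orange, earlier arrays in blue, and the mean and SD as bars. Tle6 lies between 0.73 and 1.16 at 24 months AL, and in each of the 6 adult groups the later arrays have a higher mean of Gsk3b and a lower mean of Wnt4 than the earlier ones.

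With array cycle (5 passes of the array numbers through the groups) and batch as a block, 5 of 24 genes had an unadjusted p under 0.05 in this interval, and all 5 differences were positive. Of all spots 15.9% had such a p with that block, in a fit that kept both near-identical arrays of 16 months AL. The genes were Tle6, Wnt4, Gsk3b, Csnk1g1, a casein kinase anchored at the membrane, and Dkk3, a divergent member of the Dickkopf inhibitors. The smallest adjusted p of these was 0.0794, that of Tle6, so none passed. Csnk1g1 stood at -1.05 in array 40 and 0.19 in array 41, both of 24 months AL and cycle 3. The 16 months AL arrays of that cycle, 37 and 38, stood at -0.86 and -0.99. Neither block takes up this move, and its part in the difference of Csnk1g1 was not tested.

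Wnt4 averaged 1.52 ± 0.20 at 24 months (SD, n = 10), against 1.36 ± 0.16 at 16 months (n = 9), with overlapping groups and a difference of 0.16 ± 0.09 (SE, limma adjusted p = 0.863). Its second spot gave a difference of -0.02. Gsk3b, the kinase that marks beta-catenin, averaged 0.88 ± 0.23 at 24 months (SD, n = 10), against 0.76 ± 0.28 at 16 months (n = 9). Its difference was 0.165 ± 0.114 (SE, limma adjusted p = 0.937), and its second spot gave -0.06. Dkk3 averaged -0.17 ± 0.20 at 24 months (SD, n = 10), against -0.31 ± 0.21 at 16 months (n = 9). Its fitted difference of 0.15 turned to -0.10 once neighbouring spots of the filter were used as a correction.

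The core of the destruction complex and the receptor gave small differences with wide intervals between 24 and 16 months. The 95% interval ran from -0.14 to 0.12 for Axin1, from -0.24 to 0.35 for Apc, from -0.21 to 0.21 for Fzd3 and from -0.07 to 0.25 for Jag1. By role, 3 of 3 Wnt ligands, 2 of 3 inhibitors and 5 of 9 cytoplasmic components had positive differences. Among Tle genes 2 of 3 were positive, and among NFAT factors 0 of 2. Over the 24 genes the median difference was 0.02, with 13 positive, and over all spots the median was -0.004 with 48.2% positive.

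Between 16 and 6 months AL the leading gene was Apcdd1, a membrane protein that binds Wnt and blocks it. Its lowest, median and highest z were 0.08, 0.26 and 0.37 at 16 months, against -0.30, 0.06 and 0.25 at 6 months. All 9 values at 16 months lay above the mean at 6 months, but the groups overlapped. The means were 0.25 ± 0.09 at 16 months (SD, n = 9), against 0.04 ± 0.17 at 6 months (n = 10), and the difference was 0.21 ± 0.07 (SE, limma adjusted p = 0.999). It was 0.21 in the earlier arrays alone, 0.29 in the later ones and 0.08 with the filter correction and the block.

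Csnk2a2 was the other gene of the 24 with an unadjusted p under 0.05 in that interval, and its second spot did not share the difference. It averaged -0.85 ± 0.17 at 16 months (SD, n = 9), against -1.04 ± 0.16 at 6 months (n = 10), a difference of 0.21 ± 0.09 (SE), while the second spot gave 0.001 ± 0.107. Of the 24 genes 0 passed in limma (0% of all spots), 2 had an unadjusted p under 0.05 (3.04% of all spots), and 4 did with cycle and batch as a block (7.91% of all spots). Without the near-identical arrays and with no block, 1 of 24 had such a p (1.125% of all spots). Both of those arrays stood at -0.65 for Csnk2a2, the highest values of 16 months AL. Wnt4, next by p, averaged 1.36 ± 0.16 at 16 months (SD, n = 9), against 1.52 ± 0.24 at 6 months (n = 10).

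Between 24 and 6 months AL, Tle6 and Apcdd1 were the 2 of 24 genes with an unadjusted p under 0.05 (2.89% of all spots), and 0 passed in limma (0% of all spots). Tle6 averaged 0.97 ± 0.14 at 24 months and 0.77 ± 0.20 at 6 months (SD, n = 10 each), with a difference of 0.21 ± 0.09 (SE, limma adjusted p = 1). Apcdd1 averaged 0.19 ± 0.11 at 24 months and 0.04 ± 0.17 at 6 months (SD, n = 10 each), with a difference of 0.14 ± 0.07 (SE, limma adjusted p = 1). Wnt5a, next by p, had a difference of 0.12 ± 0.07. Under the block of cycle and batch, Tle6, Apcdd1, Wnt5a, Csnk1g1 and Csnk1a1 had such a p (5 of 24, against 10.9% of all spots). Of these differences 4 were positive, and that of Csnk1a1 was -0.24. Inside cycle 2, Csnk1a1 stood at 0.07 and -0.14 in 6 months AL arrays 19 and 20. It stood at -0.63 and -0.49 in 24 months AL arrays 27 and 28. Csnk1g1 stood at -1.05 in array 40 and 0.19 in array 41, both of 24 months AL and cycle 3. Neither block takes up these moves, and their part in the differences was not tested. The comparisons between adult ages share the arrays of an age, so their values are not independent of each other.

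The first steps of the study's selection were a mean z above 0, a z-ratio (the difference over its SD across all spots) of at least 1.5 in size and an unadjusted p under 0.05 from the compared groups alone. Applied here, those steps took Apcdd1 between 16 and 6 months (1 of 24 genes, 0.414% of all spots) and Tle6 between 24 and 16 months (1 of 24, 2.04% of all spots). Between 24 and 6 months they took both (2 of 24, 1.5% of all spots). All 4 of these differences were positive. The last step of the selection, a test over age, sex and diet together, was not applied.

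**Figure D3:**
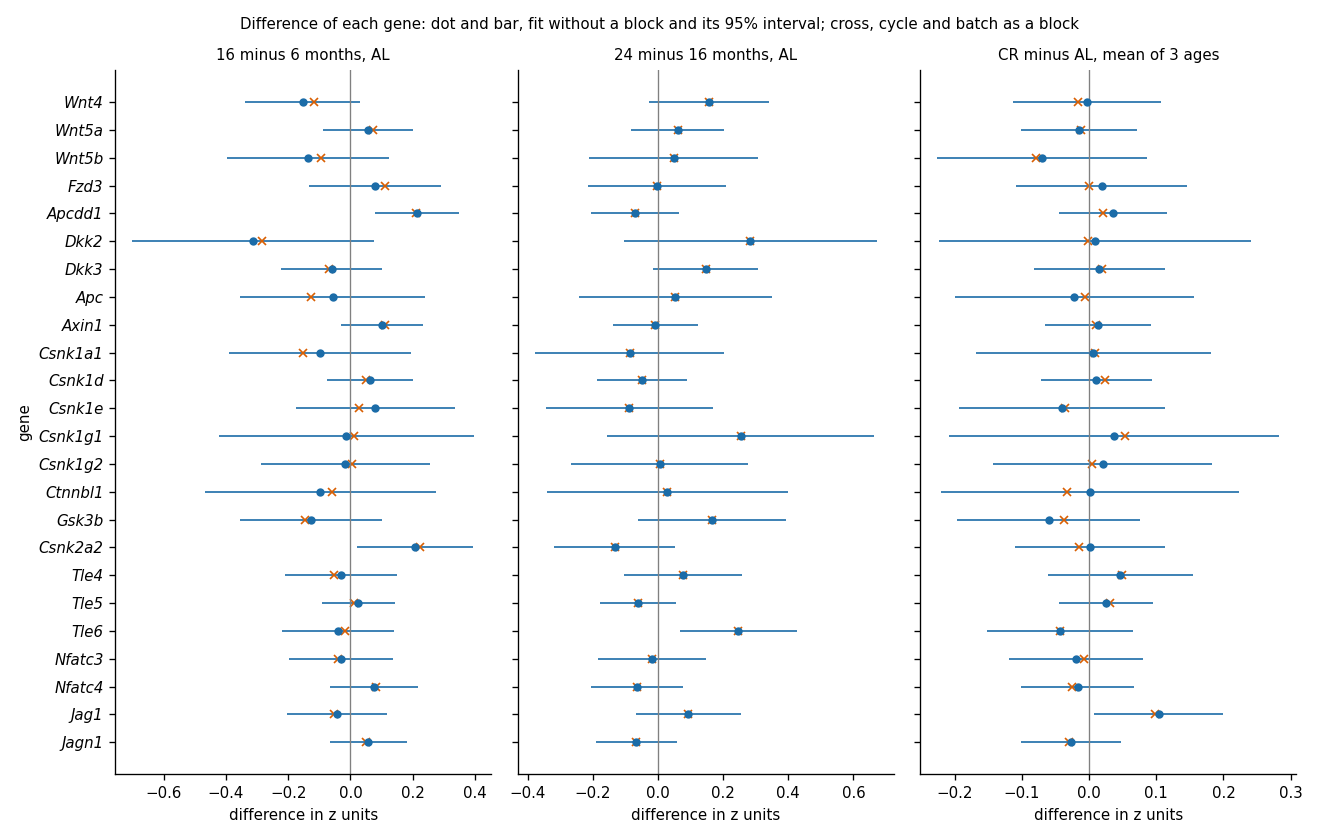
Difference of each of the 24 genes (horizontal axis, z units) between 16 and 6 months AL, between 24 and 16 months AL, and between CR and AL over the ages of 6, 16 and 24 months. Dots and bars give the fit with no block and its 95% interval, and crosses the fit with array cycle and batch as a block. The bars of Apcdd1 and Csnk2a2 in the first panel, Tle6 in the second and Jag1 in the third lie clear of 0 before adjustment, and 0 genes passed after it.

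Caloric restriction was compared with the AL diet at each adult age and over the 3 ages. Jag1, the ligand that activates Notch on a neighbouring cell, was the 1 of 24 genes with an unadjusted p under 0.05 over the 3 ages (0.71% of all spots), and 0 passed in limma (0% of all spots). Jag1 averaged -0.08 ± 0.15 in CR mice and -0.20 ± 0.21 in AL mice at 6 months (SD, n = 9 and 10). At 16 months the means were -0.12 ± 0.16 in CR mice and -0.23 ± 0.15 in AL mice (SD, n = 10 and 9). At 24 months they were -0.12 ± 0.24 in CR mice and -0.15 ± 0.19 in AL mice (SD, n = 8 and 10).

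The diet groups of Jag1 overlapped at every age, and its difference over the 3 ages was 0.10 ± 0.05 (SE, limma adjusted p = 0.9999). It was 0.15 in the earlier arrays and 0.02 in the later ones. Leaving out any 1 of 57 adult arrays kept it between 0.09 and 0.12, and in 17 of these 57 refits 0 of 24 genes had an unadjusted p under 0.05. Jag1 also lost that p without the near-identical arrays, with a difference of 0.09. With the filter correction its difference was 0.05 and 0 of 24 genes had such a p, where 1.07% of all spots did. Wnt5b, second by p, had a difference of -0.07 ± 0.08, and Gsk3b, next, one of -0.06 ± 0.07. The 95% intervals over the 3 ages ran from -0.06 to 0.09 for Axin1, from -0.20 to 0.16 for Apc and from -0.11 to 0.15 for Fzd3.

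At single ages 0 of 24 genes had an unadjusted p under 0.05 between CR and AL mice, and 0 passed in limma (0% of all spots at each age). Of all spots 0.462% had such a p at 6 months, 1.03% at 16 months and 1.04% at 24 months. Under the block of cycle and batch, such a p was found at 6 months for 2 of 24 genes (2.13% of all spots), Wnt5b at -0.25 and Csnk1d at 0.11. At 16 months it was found for 0 of 24, and at 24 months for 2 of 24 (3.41% of all spots), Gsk3b at -0.15 and Wnt4 at -0.13. The smallest p belonged to Wnt5b at 6 months, with -2.08 ± 0.28 in CR mice and -1.85 ± 0.31 in AL mice (SD, n = 9 and 10). At 16 months it belonged to Tle4, a co-repressor of the Groucho family, with -1.23 ± 0.17 in CR mice and -1.36 ± 0.24 in AL mice (SD, n = 10 and 9). The AL arrays of Tle4 held -1.50 in both near-identical arrays and -1.89 in female replicate 3, and the later arrays alone gave the opposite sign. At 24 months the smallest p belonged to Gsk3b. Jag1 and Csnk1d at 6 months, Jag1 and Csnk2a2 at 16 months, and Wnt4 and Jagn1 at 24 months followed, with differences of 0.13, 0.09, 0.12, -0.10, -0.12 and -0.08 in that order.

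The Gsk3b values at 24 months became clearer once the array batches were set apart, a view chosen after its values were seen. In the earlier arrays they lay between 0.52 and 0.62 in the 5 CR mice, against 0.64 to 0.87 in the 6 AL mice, with no overlap. In the later arrays they lay between 0.79 and 1.06 in 3 CR mice, against 0.99 to 1.27 in 4 AL mice, with overlap. Gsk3b was the 1 of 24 genes whose diet groups did not overlap in the earlier arrays, as 0.13% of all spots did not. Pooled, Gsk3b averaged 0.71 ± 0.21 in CR mice and 0.88 ± 0.23 in AL mice (SD, n = 8 and 10), a difference of -0.18 ± 0.12 (SE, limma adjusted p = 1), and -0.15 with cycle and batch as a block (adjusted p = 0.999).

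The second Gsk3b spot did not share that difference. It averaged -0.90 ± 0.26 in CR mice and -0.88 ± 0.16 in AL mice at 24 months (SD, n = 8 and 10), a difference of -0.02 ± 0.09 (SE). In the earlier arrays the second spot ran from -1.49 to -0.71 in CR mice, against -1.10 to -0.72 in AL mice.

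Whether the change between 24 and 16 months differed between the diets was tested as an interaction. In limma 0 of 24 genes passed (0% of all spots) and 0 had an unadjusted p under 0.05 (0.888% of all spots). With cycle and batch as a block 4 of 24 had such a p, where 3.59% of all spots did, and none passed (adjusted p = 0.999 for each). These 4 were Gsk3b, Apc, Wnt4 and Tle4, with blocked differences of -0.23, -0.27, -0.17 and -0.23 in the change of CR mice minus that of AL mice. Apc and Tle4 also moved inside cycle 2, which neither block takes up. In the 16 months CR arrays 21 and 22, Tle4 stood at -0.90 and -1.07 and Apc at -0.80 and -0.93. In arrays 23 to 28, of 16 months AL and 24 months, Tle4 ran from -1.67 to -1.49 and Apc from -1.49 to -1.21. The part of this move in the interaction was not tested.

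With no block the interaction of Gsk3b was -0.26 ± 0.17, that of Tle4 -0.22 ± 0.13 and that of Csnk2a2 0.17 ± 0.14 (SE). Gsk3b averaged 0.71 ± 0.21 at 24 months and 0.80 ± 0.23 at 16 months in CR mice (SD, n = 8 and 10), where the AL means were 0.88 at 24 months and 0.76 at 16 months. Its second spot gave an interaction of -0.02 ± 0.12. For Wnt4 the brighter spot gave -0.15 ± 0.14 and the second spot 0.12 ± 0.10, on opposite sides of 0.

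**Figure D4:**
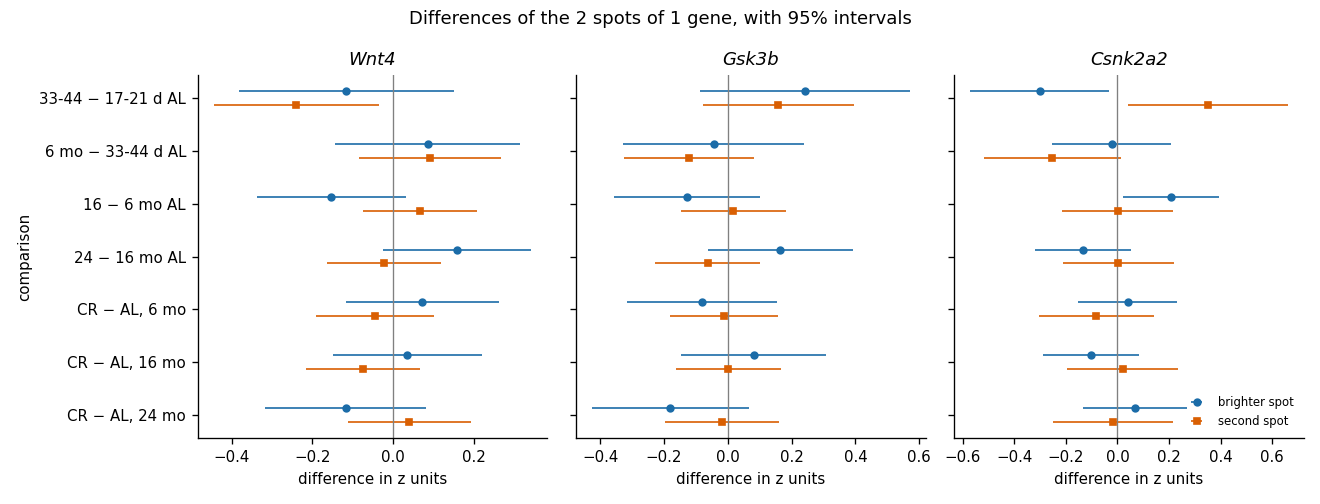
Differences in z units (horizontal axis) for both spots of Wnt4, Gsk3b and Csnk2a2 in 7 comparisons of age or diet (vertical axis), with circles for the brighter spot, squares for the second and bars for 95% intervals. The 2 spots of Csnk2a2 lie on opposite sides of 0 between 33-44 and 17-21 days, and those of Gsk3b differ at 24 months, where the brighter one is at -0.18 and the second at -0.02.

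Between females and males over 6, 16 and 24 months, 0 of 24 genes passed in limma (0% of all spots) and 1, Jag1, had an unadjusted p under 0.05 (0.971% of all spots). Jag1 averaged -0.20 ± 0.18 in 30 females and -0.11 ± 0.18 in 27 males (SD), and the difference was -0.10 ± 0.05 (SE, limma adjusted p = 1). Nfatc4, an NFAT factor of the calcium branch, averaged 1.10 ± 0.13 in 30 females and 1.02 ± 0.12 in 27 males (SD), with a difference of 0.08 ± 0.04 (SE). Its unadjusted p was above 0.05 in limma, but it was the 1 of 24 genes that the first steps of the study's selection took (0.651% of all spots). Those steps use an unmoderated p from the compared groups alone. In limma on the compared groups alone, 1 of 24 genes had an unadjusted p under 0.05, with a positive difference (1.373% of all spots). Axin1, next by p, had a difference of 0.06 ± 0.04. The difference of Jag1 was -0.03 after subtracting the neighbouring spots of the filter. Under the block of cycle and batch, 2 of 24 genes, Jag1 and Nfatc4, had an unadjusted p under 0.05, where 3.65% of all spots did.

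Whether the change between 24 and 16 months AL differed between females and males was not resolved. In limma 0 of 24 genes passed (0% of all spots), and 0 had an unadjusted p under 0.05 (0.0947% of all spots). The smallest p belonged to Tle6 (0.20 ± 0.18), Csnk1g1 (0.34 ± 0.41) and Csnk2a2 (-0.14 ± 0.19), each as the change in females minus that in males with its SE.

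The youngest AL mice were compared as 33-44 against 17-21 days. In limma 0 of 24 genes passed, where 0.0947% of all spots did (8 of 8448). An unadjusted p under 0.05 was found for 4 of 24 genes, Axin1, Nfatc4, Csnk2a2 and Fzd3, all lower at 33-44 days, and for 14% of all spots. With cycle and batch as a block 1 of 24, Axin1, had such a p, where 9.65% of all spots did. Fitted on the compared groups alone, 1 of 24 had such a p, Apc, which was higher at 33-44 days, where 6.91% of all spots did. With the correction by neighbouring spots of the filter 0 of 24 had one, where 5.16% of all spots did.

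Axin1, the scaffold of the destruction complex, had z-scores of -0.44, -0.38, -0.18, -0.66 and -0.57 at 33-44 days, against -0.26, -0.38, -0.16, 0.08 and -0.16 at 17-21 days. The groups overlapped, and the 2 lowest values at 33-44 days came from its 2 arrays numbered 46 and above. The difference was -0.26 ± 0.09 (SE, limma adjusted p = 0.224), -0.18 with cycle and batch as a block, and -0.04 with the filter correction added. Without 33-44 days AL female replicate 1 it was -0.36 and passed (limma adjusted p = 0.0354), in a refit that called 441 of all spots.

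Fzd3 stood at 0.66, 0.77, 0.93, 0.15 and 0.16 at 33-44 days, against 0.64, 0.58, 0.99, 1.10 and 0.85 at 17-21 days. Here too the 2 lowest values at 33-44 days were the later arrays, and the 3 earlier arrays lay within the range of 17-21 days. Its difference was -0.31 ± 0.15 (SE, limma adjusted p = 0.352), and -0.12 with cycle and batch as a block.

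Nfatc4 stood at 1.24, 1.13, 1.12, 0.64 and 0.74 at 33-44 days, against 1.35, 0.82, 1.28, 1.31 and 1.26 at 17-21 days. Csnk2a2 stood at -0.52, -0.78, -0.85, -1.52 and -1.33 at 33-44 days, against -0.49, -1.09, -0.69, -0.69 and -0.65 at 17-21 days. Both genes again had their 2 lowest values of 33-44 days in the later arrays. The differences were -0.25 ± 0.10 for Nfatc4 and -0.30 ± 0.13 for Csnk2a2, and they were 0.03 and 0.01 with the filter correction and the block. The second Csnk2a2 spot went the other way, with a difference of 0.35 ± 0.15 (SE, limma adjusted p = 0.318).

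Apc, the tumour suppressor that holds beta-catenin in the destruction complex, had the largest difference of the 24 genes between these ages. It stood at -0.61, -0.76, -1.29, -0.46 and -0.60 at 33-44 days, against -1.15, -1.21, -1.26, -1.32 and -1.11 at 17-21 days. All arrays of 33-44 days but 1 lay above every array of 17-21 days. The difference was 0.43 ± 0.21 (SE, limma adjusted p = 0.353), and 0.12 with cycle and batch as a block.

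The sign of these differences was read by the row of the spot in the filter layout. That layout, of 22 columns, 24 rows and 16 blocks, was inferred from the values. In rows 1 to 6, 8 of the 10 spots of the 24 genes were lower at 33-44 days, as were 85.0% of all 2112 spots there. In rows 19 to 24, 0 of 8 were lower, as were 17.6% of all spots there. In rows 7 to 12, 2 of 5 were lower, and in rows 13 to 18, 2 of 4. Of all spots in those rows 58.7% and 36.4% were lower. Axin1 and Nfatc4 lie in row 4, Csnk2a2 in row 5 and Fzd3 in row 2, and the second Csnk2a2 spot lies in row 21. The medians over all spots were -0.19 in rows 1 to 6 and 0.16 in rows 19 to 24. The bands of 6 rows were chosen after the values were seen, and the part of the row in these differences was not tested. Between 24 and 16 months AL the same medians were 0.03 and -0.02.

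**Figure D5:**
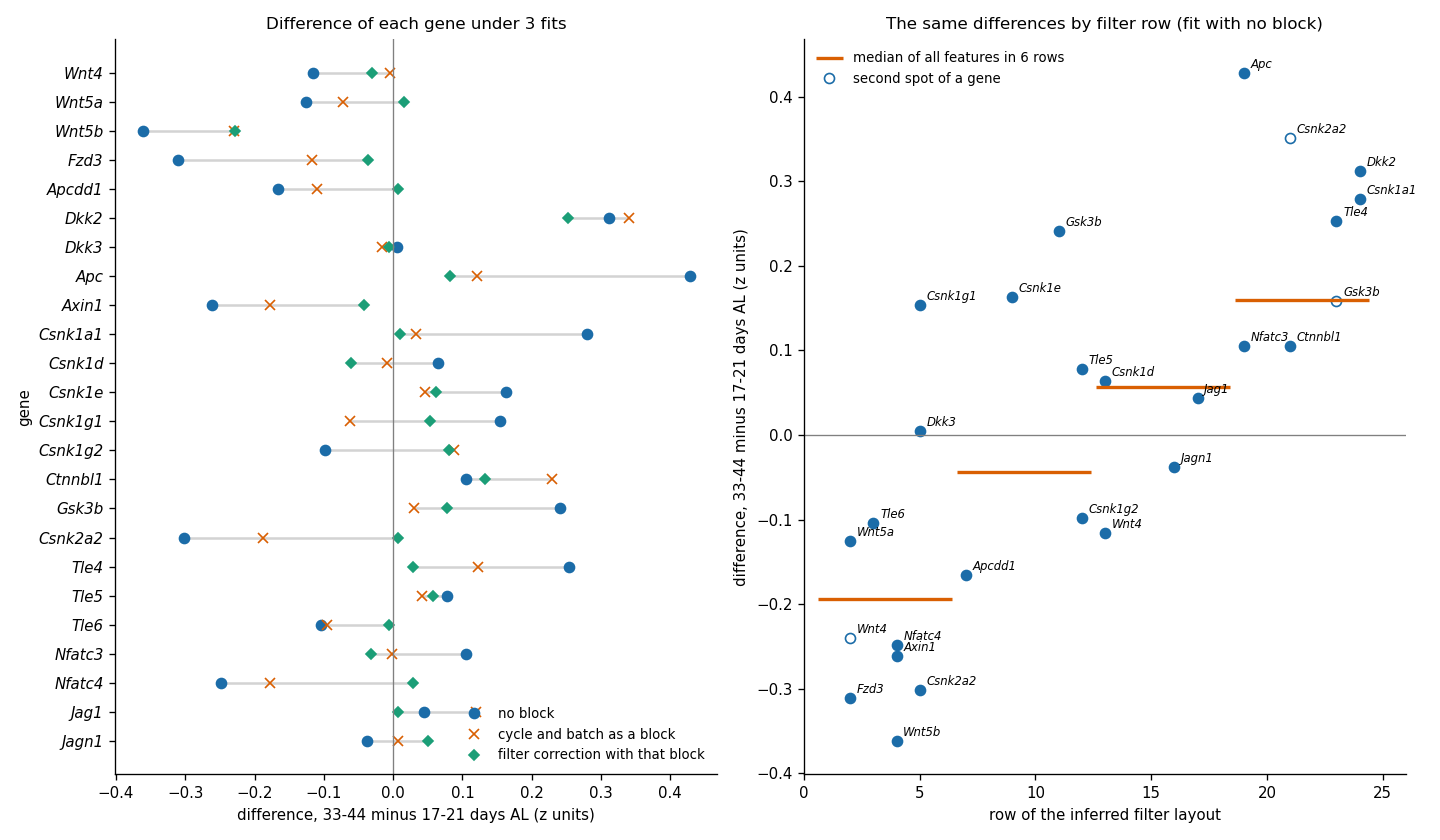
Difference of each gene between 33-44 and 17-21 days AL in z units. Left, the 24 genes under 3 fits (circles, no block; crosses, cycle and batch as a block; diamonds, filter correction with that block). Right, the differences with no block against the row of the spot, with open circles for second spots and orange lines for the median of all spots in each 6 rows. Axin1, Nfatc4, Csnk2a2 and Fzd3 sit in rows 2 to 5, where the median of all spots is -0.19.

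The red cell markers moved with the same ages. Their mean z, over 4 of 7 listed genes, was -0.40 at 33-44 days (range -0.69 to -0.13) and -0.06 at 17-21 days (range -0.19 to 0.03). Of the 4, 1 passed in limma. Their part in the differences of Axin1, Fzd3, Nfatc4 and Csnk2a2 was not tested.

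Between 6 months and 33-44 days AL, 0 of 24 genes passed in limma (0% of all spots), and Wnt5b was the 1 gene with an unadjusted p under 0.05 (5.31% of all spots). It averaged -1.85 ± 0.31 at 6 months and -2.22 ± 0.46 at 33-44 days (SD, n = 10 and 5). The lowest, median and highest values were -2.37, -1.88 and -1.37 at 6 months, and the 5 values at 33-44 days were -2.76, -2.08, -1.54, -2.30 and -2.44. The groups overlapped, and the difference was 0.33 ± 0.16 (SE, limma adjusted p = 0.932). It was 0.16 in the earlier arrays and 0.32 in the later ones. Without 33-44 days AL female replicate 2 it was 0.11, and without female replicate 1 of that age 0.56. Leaving out each array in turn gave 0 to 5 of 24 genes with an unadjusted p under 0.05. There were 5 without that female replicate 1, where 15.79% of all spots had such a p. Tle4 (-0.18 ± 0.11) and Axin1 (0.13 ± 0.08) followed by p.

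Genes of both pathways outside the 24 were read from fixed lists. Of 73 other Wnt pathway genes 27 were measured, and 0 passed in limma with no block in any of the 12 comparisons. In the interval between 24 and 16 months AL 4 of 27 had an unadjusted p under 0.05 (6.57% of all spots), 1 of them positive, and 15 of 27 differences were positive with a median of 0.03. The positive one was Rac1, a small GTPase of the branch that shapes the cytoskeleton, with 0.95 ± 0.16 at 24 months (SD, n = 10), against 0.73 ± 0.19 at 16 months (n = 9). Its difference was 0.24 ± 0.09 (SE, limma adjusted p = 0.647), and it passed with cycle and batch as a block (limma adjusted p = 0.0296), as 1.09% of all spots did (92 of 8448). With batch alone as a block (adjusted p = 0.156) and with the filter correction added to cycle and batch (adjusted p = 0.157) it did not pass, and 0 of all spots did. All of these fits kept both near-identical arrays of 16 months AL.

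Nkd2, which binds Dishevelled and dampens Wnt signals, had the smallest p of that list. It averaged -0.15 ± 0.19 at 33-44 days and 0.23 ± 0.13 at 17-21 days (SD, n = 5 each), a difference of -0.40 ± 0.10 (SE, limma adjusted p = 0.0627). Between those ages 5 of the 27 had an unadjusted p under 0.05 (14% of all spots), 2 of them positive. Of 19 Wnt target genes 5 were measured, and 0 had an unadjusted p under 0.05 in any comparison. Myc had a difference of -0.13 ± 0.08 between 24 and 16 months, and Id2 one of 0.13 ± 0.09 between 6 months and 33-44 days.

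Of 37 other Notch pathway genes 15 were measured and 0 passed in limma. Dlk1, a ligand-like protein that lacks the domain for activating Notch, averaged -0.995 ± 0.182 at 24 months (SD, n = 10), against -1.18 ± 0.12 at 16 months AL (n = 9), a difference of 0.18 ± 0.07 (SE, limma adjusted p = 0.658). Aph1b, a subunit of the gamma-secretase that cuts Notch, had a difference of 0.31 ± 0.14 between 24 and 6 months AL. Between 24 and 16 months 3 of the 15 had an unadjusted p under 0.05 (6.57% of all spots), 2 of them positive.

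Of 11 Notch target genes 1 was measured, Nr2e1, a nuclear receptor of neural stem cells. It averaged 1.36 ± 0.12 at 24 months (SD, n = 10), against 1.52 ± 0.10 at 16 months AL (n = 9). The difference was -0.17 ± 0.06 (SE, limma adjusted p = 0.612), and the adjusted p with cycle and batch as a block was 0.06. CR mice of 24 months stood at 1.44 ± 0.15 (SD, n = 8).

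The cortex label could not be checked on marker genes. Of 14 genes listed for cortical neurons 1 was measured, Slc17a6, with a mean z of -0.10. Of 7 oligodendrocyte and 4 choroid plexus markers 0 were measured. At 24 months AL the mean z of the measured markers was 0.17 for astrocytes, 0.16 for microglia and 0.52 for meninges, against 0.15, 0.11 and 0.48 at 16 months AL. The arrays of the 2 ages overlapped for each of these lists, and their part in the differences of Tle6, Wnt4, Gsk3b and Rac1 was not tested.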

How the data were processed

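RNA from cerebral cortex of 67 mice was radiolabelled and hybridised to cDNA filters. Each deposited value is a score: the authors turned the log intensities of each array into z-scores (mean 0, SD 1). Sources used here do not give the log base or how background was treated. No intensities were used, so the number of arrays sets the precision. Genes were named where the platform annotation gave 1 symbol. A mean was fitted for each of 16 groups with limma 3.58.1 (R 4.3.3) and tested with eBayes, two-sided, in 12 comparisons. P-values were adjusted by Benjamini-Hochberg over 8448 spots, with a threshold of 0.05. The array numbers pass through the groups 5 times (cycles). Batch (array number 46 and above), cycle, quantile normalization, median centring, a filter on mean z, single batches, leaving out arrays, and a correction that subtracts from each spot the median of a 5 by 5 window of its neighbours were alternatives. Replicate numbers follow accession order and pair no animals. P-values measure the spread between the arrays of a group.

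Genes given with values were, per comparison, those past the threshold or the 3 with the smallest p, the pathway cores, and of each further list those that passed or the 2 with the smallest p. The 24 genes and the lists were chosen with earlier results of these data known. Tables were handled in Python 3.11.15 with pandas 2.3.3, numpy 2.4.6 and matplotlib 3.10.9.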

Additional observations from a re-analysis of the deposited data

Results flagged for a closer look

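Each of the 24 genes was looked at in the 8 combinations of age and diet for an array far from the others of its group (Dixon's criterion), 192 in all. Chance marks about 1 in 20, and 14 were marked.

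In Apcdd1 the marked arrays were 16 months CR male replicate 4 at 0.65, with the next value at 0.30, and 6 months CR female replicate 5 at -0.35, with the next at 0.02. Csnk1g1 was highest in 17-21 days AL male replicate 2 at 0.14 (next -0.76) and in 33-44 days AL female replicate 1 at 0.19 (next -0.56). These 2 are arrays 42 and 43, and Csnk1g1 stood between -0.01 and 0.19 in all arrays numbered 41 to 45. Csnk1g2 was highest in 24 months CR male replicate 2 at 1.25 (next 0.57) and in 33-44 days AL male replicate 1 at 1.09 (next 0.56). The same 24 months CR male was also highest for Tle5 at 0.52 (next 0.15).

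Nfatc4 was lowest in 16 months CR male replicate 5 at 0.76 (next 0.98) and in 17-21 days AL female replicate 2 at 0.82 (next 1.26). That juvenile female was also highest for Ctnnbl1 at -0.95 (next -1.50). Csnk2a2 was highest in 24 months CR female replicate 1 at -0.49 (next -0.82), and Jagn1 in 16 months CR male replicate 1 at 0.65 (next 0.44). Tle4 was lowest in 16 months AL female replicate 3 at -1.89 (next -1.52), and Wnt4 in 24 months AL female replicate 4 at 1.06 (next 1.41).

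In 2 cases every array of 1 sex lay on one side of the mean of its reference group and every array of the other sex on the opposite side of its own; neither difference was tested. For Dkk3, all CR females of 6 months lay below the AL mean of their sex (mean difference -0.18) and all CR males above theirs (0.14), a gap of -0.31. For Tle5, all females of 16 months AL lay above the 6 months mean of their sex (0.14) and all males below theirs (-0.09), a gap of 0.23; both near-identical arrays are among them.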

How the results depend on the processing

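The count of genes past the adjusted threshold was 0 in each of the 12 comparisons in every alternative tried, except for Axin1 in 1 refit without an array. The filter on mean z left 10 of the 24 genes to test. The first steps of the study's selection, which use an unadjusted p, took 1 gene between 16 and 6 months, 1 between 24 and 16 months, 2 between 24 and 6 months and 1 between females and males. Leaving out each array in turn gave 0 to 1 between 33-44 and 17-21 days, the 1 being Axin1, and 0 to 0 elsewhere. The number of the 24 genes with an unadjusted p under 0.05 between those ages ranged from 0 to 10. It was 0 without 33-44 days AL female replicate 2, where 2.462% of all spots had such a p. It was 10 without 33-44 days AL female replicate 1, where 31.58% of all spots did.

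With cycle and batch as a block the number of genes with an unadjusted p under 0.05 was 5 in place of 1 between 24 and 16 months, 4 in place of 2 between 16 and 6 months, 5 in place of 2 between 24 and 6 months, 2 in place of 0 between CR and AL at 6 months and at 24 months, 2 in place of 1 between females and males, 4 in place of 0 in the interaction of diet and age, and 1 in place of 4 between 33-44 and 17-21 days.

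Of 37 differences given by the rule for named genes, 23 kept their sign under all alternatives and all 952 refits without 1 array kept it. The filter correction alone turned 4 signs. Between 33-44 and 17-21 days it gave 0.0289 for Nfatc4, 0.0494 for Csnk2a2 and 0.000342 for Axin1, and between 24 and 16 months -0.10 for Dkk3. With cycle and batch as a block it gave 0.0286 for Nfatc4, 0.00763 for Csnk2a2 and -0.10 for Dkk3 in the same comparisons. The second spot turned 6 signs, giving 0.35 for Csnk2a2 between 33-44 and 17-21 days, 0.067 for Wnt4 between 16 and 6 months, -0.023 for Wnt4 between 24 and 16 months, 0.02 for Csnk2a2 between CR and AL at 16 months, 0.0403 for Wnt4 between CR and AL at 24 months and -0.036 for Csnk2a2 in the interaction of diet and age. Arrays numbered up to 45 alone gave -0.0254 for Axin1 between 6 months and 33-44 days. Arrays from 46 alone gave 0.0225 for Wnt4 between 16 and 6 months, -0.015 for Tle4 and -0.0125 for Jag1 between CR and AL at 16 months, 0.0075 for Jagn1 at 24 months and -0.08 for Csnk1g1 in the interaction of sex and age. The cause of these turns was not tested.

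Quantile normalization, median centring, the blocks and the fit of only the compared groups turned 0 of the 37 signs. The later arrays held 0 mice of 17-21 days, so the juvenile comparison has no value in them.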
